A study of Homo sapiens with 6 samples.

Results

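The genes described here are 10 inflammatory cytokine genes of the human genome, IL6, IL1A, IL1B, IL1RN, TNF, CXCL8, CCL2, CCL5, CXCL10 and LIF, out of 19974 protein-coding genes on chromosomes 1 to 22 and X of the RefSeq table. They were chosen by name, and every NRF2 peak whose summit lay inside one of them or within 50 kb of either end was taken. All 10 were found in the table, and 4 peaks met this rule, all of them from CDDO-Im libraries: 2 in CDDO-Im 1 and 2 in CDDO-Im 2, against 0 in vehicle 1 and 0 in vehicle 2. NRF2 had been mapped by chromatin immunoprecipitation and sequencing (ChIP-seq, antibody D1Z9C) in HMC3, an established, immortalised human microglial cell line, after CDDO-Im (30 nM, 4 h; 2 libraries) or vehicle (2 libraries). The treatment text names CDDO-Im for every sample, so the groups rest on the sample titles, and the 2 input samples were not analysed here. The labels do not say whether the 2 libraries of a group stem from different cultures, and their spread may be technical only. Peak lists hold no expression values, so the microglial identity of the cells could not be checked against marker genes.

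NRF2 is a transcription factor that is held low by KEAP1, which passes it on for degradation. Electrophiles such as CDDO-Im, a synthetic triterpenoid, modify KEAP1, and NRF2 then collects in the nucleus, pairs with small MAF proteins and binds antioxidant response elements near genes of detoxification and antioxidant defence. In microglia and macrophages the cytokine genes described here are switched on through NF-kB, C/EBP and AP-1 factors during inflammation. In mouse macrophages NRF2 has been reported to bind near Il6 and Il1b and to lower their transcription.

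The finding at IL6 concerns the stretch just before the gene, so the 250 bases upstream of its start are shown first. They come from RefSeq (build GRCh38.p14) and lie at chr7:22726950-22727199 on the plus strand. IL1A (chr2:112784494-112784743, minus strand) and CXCL10 (chr4:76023498-76023747, minus strand) follow because they are the cytokine genes whose window holds the core letters of an antioxidant response element. GCLM (chr1:93909431-93909680, minus strand), an NRF2 target that encodes a subunit of the enzyme for the first step of glutathione synthesis, is shown as a window that holds this core under peaks of CDDO-Im 1 and CDDO-Im 2. Each is written 5′ to 3′ on the strand of its gene. In IL6 capitals mark all matches to the motifs named in the next paragraph, and in the other windows only the antioxidant response element core.
IL6: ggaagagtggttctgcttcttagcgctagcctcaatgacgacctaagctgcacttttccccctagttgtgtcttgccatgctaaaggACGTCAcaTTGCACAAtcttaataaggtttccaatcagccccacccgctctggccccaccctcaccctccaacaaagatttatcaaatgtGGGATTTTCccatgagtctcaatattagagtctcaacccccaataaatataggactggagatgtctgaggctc
IL1A: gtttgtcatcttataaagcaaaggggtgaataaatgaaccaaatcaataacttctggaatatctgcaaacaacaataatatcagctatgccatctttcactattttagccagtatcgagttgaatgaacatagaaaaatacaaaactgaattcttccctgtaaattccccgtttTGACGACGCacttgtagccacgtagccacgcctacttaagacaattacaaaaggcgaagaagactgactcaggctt
CXCL10: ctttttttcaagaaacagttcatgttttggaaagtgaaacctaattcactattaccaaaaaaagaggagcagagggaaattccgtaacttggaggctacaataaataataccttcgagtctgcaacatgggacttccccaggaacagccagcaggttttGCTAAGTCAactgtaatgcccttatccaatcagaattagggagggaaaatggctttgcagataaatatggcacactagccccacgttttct
GCLM: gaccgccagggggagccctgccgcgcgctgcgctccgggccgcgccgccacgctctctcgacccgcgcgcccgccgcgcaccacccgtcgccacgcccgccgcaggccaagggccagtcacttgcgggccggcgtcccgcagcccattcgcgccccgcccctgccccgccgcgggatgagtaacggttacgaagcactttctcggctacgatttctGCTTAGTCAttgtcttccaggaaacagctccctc

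The motifs were searched on both strands of the 250 bases: the antioxidant response element core (TGACNNNGC), AP-1 (TGANTCA), NF-kB (GGGANTTTC), C/EBP (TTGCNNAA) and the half-site of the cyclic AMP response element (TGACGT). The core TGACNNNGC and AP-1 can overlap where the letters before the GC read TGACTCA. The IL6 window held no antioxidant response element core and no AP-1 letters. It held the cyclic AMP half-site at -163 to -158 from the gene start, C/EBP letters at -155 to -148, and NF-kB letters at -73 to -65. The peak of CDDO-Im 1 covered 145 and that of CDDO-Im 2 covered 152 of these 250 bases, at their far end from the gene. The C/EBP and cyclic AMP letters thus lay under both peaks, and the NF-kB letters lay under neither.

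Among 22132 windows of protein-coding genes, 11.2% held the antioxidant response element core, 5.35% AP-1, 1.04% NF-kB, 7.5% C/EBP and 7.97% the cyclic AMP half-site. Peaks of CDDO-Im 1 and CDDO-Im 2 together reached into 16 of the windows, and 8 of these held the antioxidant response element core, the one at IL6 not among them. AP-1 letters were in 6 of the 16, NF-kB letters in 1, and C/EBP letters and the cyclic AMP half-site in 2 each. In GCLM the peaks covered 227 and 239 bases in the CDDO-Im libraries, against 0 bases in vehicle 1 and 127 in vehicle 2. Of the 10 cytokine genes, 7 had a window in the table, and CCL2, CCL5 and LIF had none. AP-1 letters were found in windows of IL1A, IL1RN and CXCL8, and C/EBP letters in those of IL6 and IL1B. The core was present in IL1A (TGACGACGC) and in CXCL10 (GCTAAGTCA, on the other strand), and neither window lay under a listed peak. The summits at IL6 lay upstream of the window shown, where no sequence was searched, and letters that match a motif are a description and not a binding site.

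IL6 encodes interleukin-6, a cytokine of the acute phase that signals through IL6R and IL6ST. In CDDO-Im 1 its peak ran over chromosome 7, 22726752 to 22727094 (hg38), with 23 tags at the summit. In CDDO-Im 2 it ran over 22726765 to 22727101, with 39 tags. A tag is a read fragment covering the summit, recovered here from the deposited values, and NRF2 occupancy is given as tags over the genome-wide background of the library. This was 69.3 in CDDO-Im 1 and 106 in CDDO-Im 2, a mean of 87.7 ± 26.0 (SD, n = 2). Neither vehicle library listed a peak there.

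The 2 peaks were alike in place and shape. Their summits lay 310 and 288 bp upstream of the first base of the gene, 22 bp apart, and the peaks were 343 and 337 bp wide and shared 330 bp. IL6 is on the plus strand (22727200 to 22731998), so the peaks lay in its upstream flank and outside the transcribed gene. No other protein-coding gene reached into the 50 kb on either side.

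**Figure D1:**
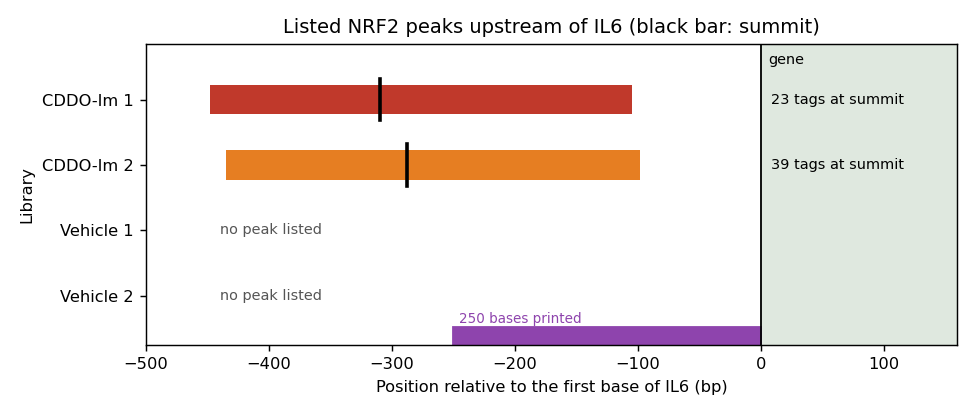
Peaks listed upstream of IL6 in each library, by position in bp from the first base of the gene; coloured bars span the peak, black bars mark its summit, and the purple bar marks the 250 bases shown above. The CDDO-Im 1 and CDDO-Im 2 peaks overlap almost fully with summits at -310 and -288, and the vehicle libraries list no peak.

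The deposited values of the IL6 peaks, which are the authors' own, were high within each list. The fold enrichment over local background was 18.0 in CDDO-Im 1 and 27.6 in CDDO-Im 2, with a −log10 p of 35.4 and 62.0 and a −log10 q of 30.6 and 57.0. By −log10 p the peak ranked 331 of 4024 in CDDO-Im 1 (the top 8.23%) and 279 of 12433 in CDDO-Im 2 (the top 2.24%). The recovered local background was 0.332 and 0.449 tags. CDDO-Im 1 thus stood at its genome-wide background of 0.332, and CDDO-Im 2 above its own of 0.367.

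For scale, NQO1 and HMOX1, well-known NRF2 targets for a quinone reductase and heme oxygenase 1, had their strongest regions listed in all 4 libraries. The NQO1 region (chromosome 16, 69726731 to 69727237) had 205 and 264 tags over background with CDDO-Im, against 38.0 and 63.6 with vehicle. The IL6 value was 33.8% and 40.2% of that of NQO1 in CDDO-Im 1 and 2. The HMOX1 region (chromosome 22, 35371769 to 35372408) had 344 and 512 with CDDO-Im, against 114 and 146 with vehicle. IL6 reached 20.2% and 20.7% of HMOX1, so its share was nearly the same in both CDDO-Im libraries.

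The missing vehicle peak at IL6 is not a value of 0, since weak peaks go unlisted. At the genome-wide background the vehicle libraries listed peaks from 4 tags, or 12.7 tags over background, and the median listed peak had 7 tags in vehicle 1 and 8 in vehicle 2. In CDDO-Im 1 and 2 these medians were 10 and 9. Both IL6 values with CDDO-Im were above the lowest listed vehicle value, but so were those of the weak CDDO-Im peaks near IL1RN (18.1) and CXCL10 (16.3). The tags of vehicle at IL6 are not known, so no fold change or test between the groups was possible for this region. The nearest vehicle peaks to IL6 lay 2376000 bp (7 tags) and 2376025 bp (9 tags) away.

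A region is called gained here when CDDO-Im 1 and CDDO-Im 2 listed it and no vehicle list did, and among gained regions IL6 was one of the higher ones. Outside megabases crowded with peaks there were 1428 such regions, with a median of 33.2 tags over background in CDDO-Im 1 and 43.5 in CDDO-Im 2. By the lower of the 2 fold enrichments IL6 ranked 35 of 1428 (the top 2.45%). The ratio of CDDO-Im 2 to CDDO-Im 1 was 1.53 at IL6, against a median of 1.28 over these regions. In 37 of the gained regions both summits lay within 1000 bp of a gene end, and IL6 ranked 1 of these 37. IL6 is described here with earlier results of these data known, so these ranks carry no test.

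The genes whose pattern was most like that of IL6 were taken from the other 36 regions near a gene end, by the Euclidean distance in log2 tags over background across the 2 CDDO-Im libraries. TXNRD3, a thioredoxin reductase, was nearest (distance 0.451), with 51.3 and 98.0 tags over background in CDDO-Im 1 and 2. FECH, the last enzyme of heme synthesis, followed (0.518), with 54.3 and 81.6. SSC4D, a scavenger receptor family gene, had 48.2 and 78.9 (0.676). The sulfotransferase genes SULT1A4 (0.789) and SULT1A3 (0.813) had 42.2 and 84.4, and 45.2 and 73.5. These 2 genes are near-identical copies, so the placing of their tags is uncertain and they do not count as separate cases. In all 5, as in IL6, CDDO-Im 2 was the higher library, but the 5 were chosen by these same values. CDDO-Im 2 was also mostly the higher library over the gained regions outside crowded megabases, with a median ratio of 1.28.

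**Figure D2:**
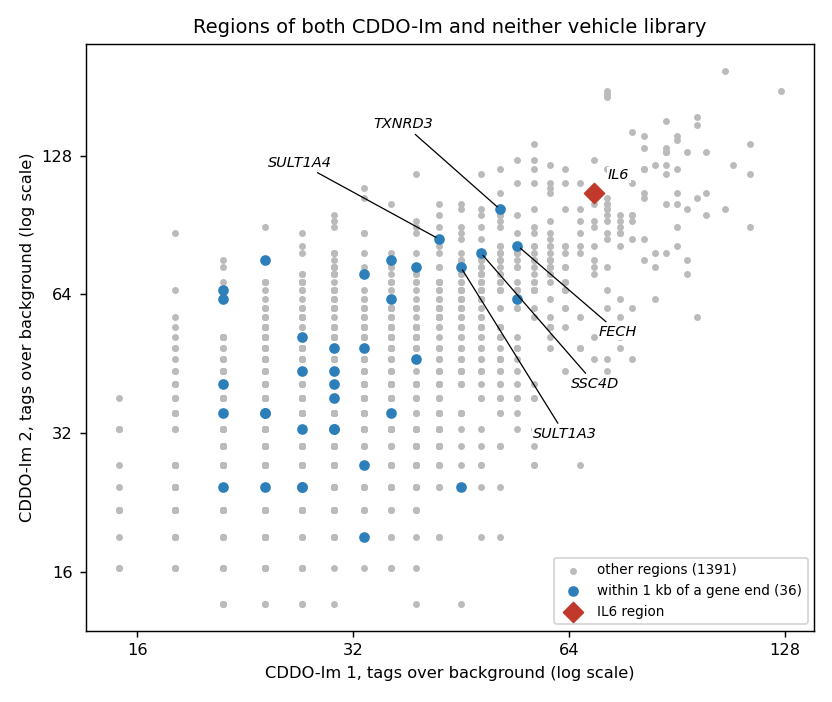
NRF2 occupancy of the 1428 gained regions, which the CDDO-Im libraries share and no vehicle list holds, as tags over background in CDDO-Im 1 (x axis) and CDDO-Im 2 (y axis), both on log scales; blue dots are the 36 other regions within 1 kb of a gene end and the red diamond is IL6. IL6, at 69.3 and 106, lies above and to the right of every blue dot.

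A further region shared by the CDDO-Im libraries lay 75 kb upstream of IL6, outside the 50 kb rule. It had 9 tags in CDDO-Im 1 (22652075 to 22652289) and 12 tags in CDDO-Im 2 (22652050 to 22652283), or 27.1 and 32.7 over background, with no vehicle peak. IL6 was also the protein-coding gene nearest to it, at 75063 and 75056 bp. On the other side, CDDO-Im 2 alone listed a peak of 7 tags 61745 bp from IL6, nearer to TOMM7, a gene of the mitochondrial import machinery. Of the peaks around IL6 it was the closest to the 50 kb limit from outside, while the peak closest to it from inside lay 32052 bp from IL1RN.

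LIF encodes leukemia inhibitory factor, a cytokine of the same family as interleukin-6 that also signals through IL6ST. Around LIF and its neighbour OSM, all 4 lists were empty within 50 kb. The nearest peaks lay 216 kb away in CDDO-Im 1 and 719 kb in CDDO-Im 2, against 1860 kb in vehicle 1 and 287 kb in vehicle 2, with 7 to 9 tags each.

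IL1A and IL1B encode interleukin-1 alpha and beta, which start fever and inflammation through IL1R1. Neither gene had a listed peak within 50 kb in any library. The nearest CDDO-Im peaks to IL1B were 91067 bp away in CDDO-Im 1 (6 tags) and 167500 bp in CDDO-Im 2 (9 tags), against 714606 bp in vehicle 1 (10 tags) and 1508540 bp in vehicle 2 (7 tags). IL1A lies beside IL1B and shares these nearest peaks, with CDDO-Im distances of 143353 and 111674 bp, against 658780 and 1452714 bp in the vehicle libraries.

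IL1RN encodes the interleukin-1 receptor antagonist, which blocks the receptor of both cytokines. CDDO-Im 1 listed 1 peak in its window (chromosome 2, 113165983 to 113166188), 32052 bp from the gene and 7905 bp from its neighbour PSD4. This peak had 6 tags, or 18.1 over background, with a deposited fold of 5.26, a −log10 p of 7.18 and a −log10 q of 3.44, and ranked in the lower part of its list (2954 of 4024). CDDO-Im 2 and the vehicle libraries listed none within 50 kb.

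TNF encodes tumour necrosis factor and lies in a gene-dense part of the major histocompatibility complex, with 10 other protein-coding genes reaching into its window. No peak was listed in that window. The nearest peak lay 238 kb away in every library, in one region that held 17 tags in each CDDO-Im library, against 12 and 10 with vehicle. Over background these were 51.3 and 46.3 with CDDO-Im, against 38.0 and 31.8 with vehicle. How many regions listed in every library differ in this way was not counted. This region lies in HSPA1A, a heat shock gene with a near-identical neighbouring copy, so the placing of its tags is uncertain. With 2 libraries against 2, an exact permutation test cannot give a two-sided p under 0.33.

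CXCL8, CCL2, CCL5 and CXCL10 encode chemokines: CXCL8 draws neutrophils, CCL2 monocytes, and CCL5 and CXCL10 T cells. Only CXCL10 among these 4 had a listed peak within 50 kb, in CDDO-Im 2 alone (chromosome 4, 76038268 to 76038444). It had 6 tags, or 16.3 over background, lay 14825 bp from CXCL10 and inside its neighbour ART3, and was 2252 bp from CXCL11. Its deposited fold was 4.64, with a −log10 p of 5.95 and a −log10 q of 2.75, and it ranked 10699 of 12433. The IL1RN and CXCL10 peaks were thus single-library peaks with 6 tags each, against 23 and 39 at IL6.

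Farther out, CXCL8 had a region 141 kb away, inside RASSF6, where CDDO-Im 1 had 17 tags and CDDO-Im 2 had 16, against 7 in vehicle 1 and no listed peak in vehicle 2. Over background these were 51.3 and 43.5 with CDDO-Im, against 22.2 in vehicle 1. CCL2 had a gained region 156 kb away with 9 and 8 tags. The nearest gene to it was CCL1, another CC chemokine, at 50009 and 50053 bp, just outside the 50 kb limit. CCL5 had its nearest CDDO-Im peaks at 523 and 614 kb, against 180 kb in vehicle 1 and 3390 kb in vehicle 2. Peaks at such distances were not assigned to a gene.

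**Figure D3:**
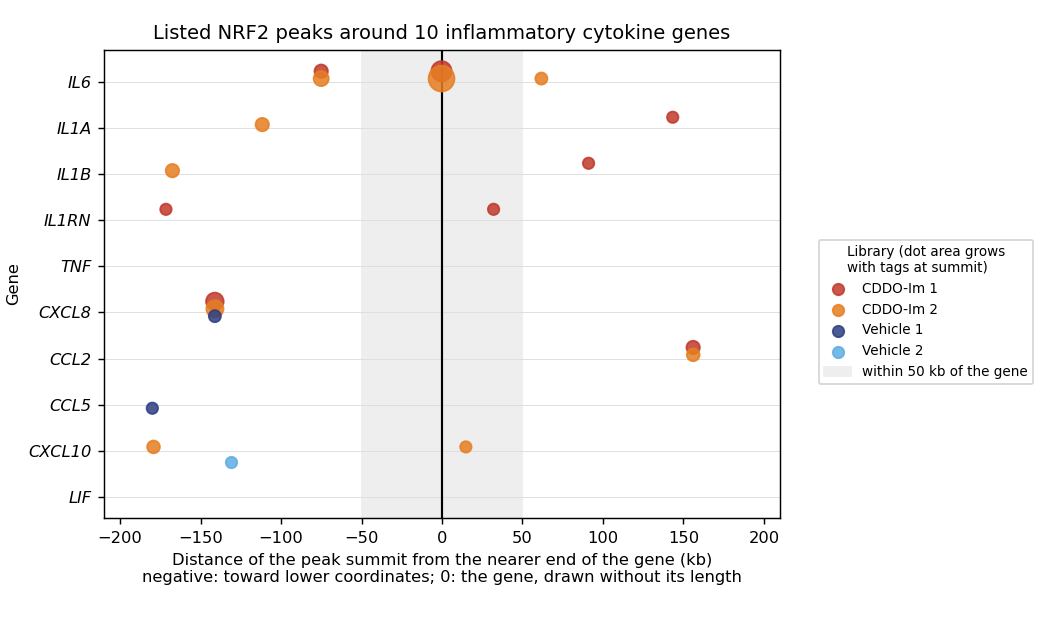
Every listed peak within 200 kb of the 10 cytokine genes, by distance of its summit from the nearer gene end in kb (x axis), with 1 row per gene, colour for the library and dot area growing with tags at the summit; grey marks 50 kb on either side. The 23-tag and 39-tag peaks at IL6 are the largest dots, and no vehicle dot lies in the grey band.

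Counted over the 10 genes, 1 (IL6) had a region shared by the CDDO-Im pair within 50 kb, and 0 had one shared by the vehicle pair. Over all 19974 protein-coding genes, 11.6% had a shared CDDO-Im region and 1.81% a shared vehicle region, so both counts of the 10 genes were close to the background. Among genes no longer than IL1RN, the longest of the 10 at 34.7 kb, the shares were 8.29% and 1.55%. Peaks of CDDO-Im 1 were near 2 of the 10 genes (background 16.4%) and those of CDDO-Im 2 near 2 (23.0%). Peaks of vehicle 1 and vehicle 2 were near 0 of the 10, where the backgrounds were 6.66% and 7.53%. A gained region lay near 1 of 10 genes (7.56%), and a peak of any library near 3 of 10 (31.5%). Taken inside the gene or within 1, 10 and 100 kb of it, a shared CDDO-Im region was counted for 1 of 10 genes each time, beside 4.61%, 5.78% and 18.8% of all genes. A shared vehicle region was counted for 0 of 10, beside 0.591%, 0.811% and 3.21%.

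The number of peaks in the 10 windows was 2 and 2 with CDDO-Im, against 0 and 0 with vehicle. On the log2(number + 1) scale the difference was 1.58, with an exact permutation p of 0.33 (two-sided, n = 2 per group), which is the lowest these 4 libraries allow. The genes were chosen with earlier results of these data known, and IL6 holds 1 of the 2 peaks in each CDDO-Im library. This p is therefore a description and lends no support. The distance from a cytokine gene to the nearest peak had a median over the 10 genes of 150.0 kb in CDDO-Im 1 and 162 kb in CDDO-Im 2, against 732 kb in vehicle 1 and 1480 kb in vehicle 2. The same medians over all protein-coding genes were 280.0 and 177 kb with CDDO-Im, against 790.0 and 716 kb with vehicle. The 10 genes are not independent here, since IL1A and IL1B had the same nearest peak in each library. The vehicle 2 median lies between their distances of 1450 and 1510 kb to the same peak, so it does not describe 10 separate cases. The lists differed in length, with 4024 and 12433 peaks with CDDO-Im, against 4227 and 7448 with vehicle, and the part of list length in these distances was not tested. Each of the 10 genes lay in a megabase with 1 to 5 joined regions, none of them crowded.

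The wider inflammatory network was read through 12 lists with 128 genes, all matched, of which 11 (8.59%, background 11.6%) had a shared CDDO-Im region within 50 kb and 0 had a shared vehicle region (background 1.81%). Of the 11, 9 had a gained region (7.03%, background 7.56%). IL6 was the only one of 8 cytokines of the interleukin-6 family so counted. Of 11 genes of the receptors and signalling of this family, JAK2, a kinase that relays interleukin-6 signals, had a region inside the gene of 8 tags (CDDO-Im 1) and 19 tags (CDDO-Im 2). Of 11 genes of the interleukin-1 family, IL33, an alarm cytokine, had 8 and 9 tags within 2250 bp. None of 10 genes of the TNF family and its receptors, 13 CC chemokines, 8 chemokine receptors or 11 interferon-response genes was counted. The CC chemokines had no listed peak of any library within 50 kb (background 31.5%). However, CCL1, which is among the 13, had the gained region at 50009 and 50053 bp, just outside this limit. Some of the 13 lie close together, as CCL2, CCL7 and CCL11 do, so they are not separate cases.

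Receptors and signalling genes of interleukin-1 had the largest share, 3 of 12 (25.0%, background 11.6%), which rests on 2 regions. As the highest of 12 lists it was picked by its value, and it was not tested. IL1R1, the interleukin-1 receptor, and IL1RL2, a receptor of interleukin-36, shared a region inside IL1RL2 (chromosome 2, 102197403 to 102197751) with 8 and 17 tags, 17709 and 17704 bp from IL1R1. Inside IL1R1, single libraries listed peaks at different places: CDDO-Im 2 one with 20 tags, and vehicle 1 one with 9 tags, or 54.4 and 28.5 over background. IRAK1, a kinase below these receptors, had a region with 8 and 19 tags, 8132 and 8175 bp away. CXCL13 was the 1 of 15 CXC chemokines counted, with 8 and 13 tags about 25242 bp away. NFKBIA, the inhibitor that holds NF-kB in the cytoplasm, was the 1 of 12 NF-kB genes, with 14 and 15 tags at 26987 and 26983 bp.

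Of 10 C/EBP and AP-1 genes, JUN had a gained region with 10 and 23 tags, 26544 and 26574 bp away. Vehicle 1 listed another peak nearer to JUN, at 2664 bp, with 5 tags. FOSL2 had 19 and 17 tags with CDDO-Im at 16825 and 16821 bp, and vehicle 1 listed a peak in the same region, with 6 tags. CDDO-Im 1 alone listed another peak nearer to FOSL2, at 11294 bp, with 6 tags. Of 7 inflammasome genes, AIM2, a sensor of DNA in the cytoplasm, had 12 and 36 tags with CDDO-Im at 37282 and 37285 bp, and vehicle 2 listed a peak there with 7 tags. Over background the AIM2 region had 36.2 and 98.0 with CDDO-Im, against 22.3 in vehicle 2. CDDO-Im 2 alone also listed a peak inside AIM2, with 13 tags. Of 10 microglia markers PTPRC and CD68 were counted. The background share for this list, and for the C/EBP and AP-1 and inflammasome lists, was 11.6%. PTPRC had a gained region with 10 and 11 tags, 10472 and 10486 bp away, and another inside the gene with 6 and 16 tags. The CD68 region had 12 and 23 tags with CDDO-Im, against 10 in vehicle 2, and lay 29687 and 29708 bp from the gene with CDDO-Im. None of these regions reached the IL6 values in both CDDO-Im libraries.

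**Figure D4:**
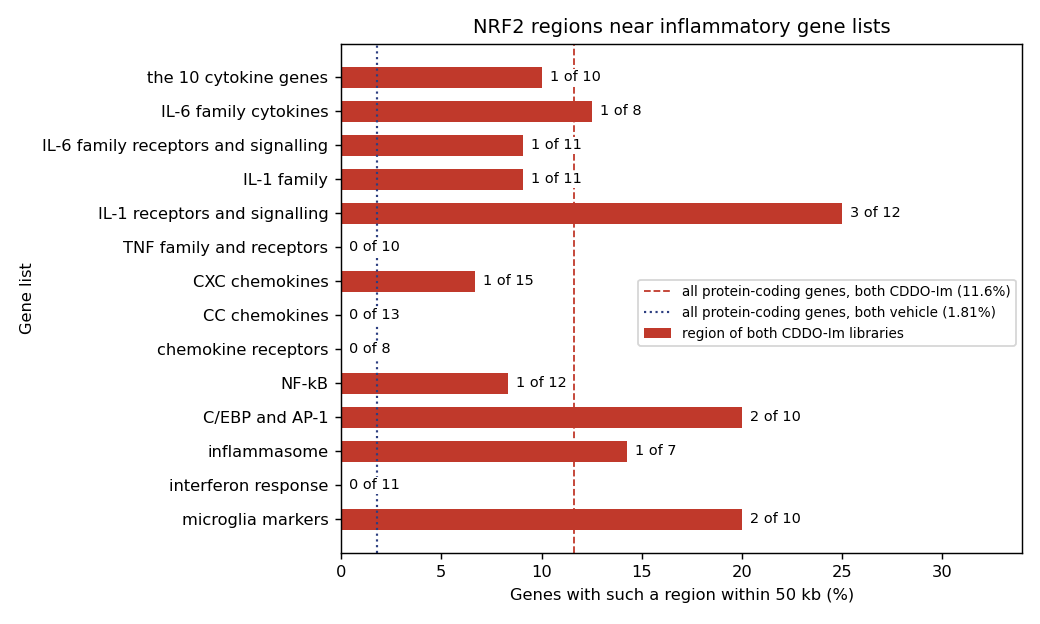
Share of genes that have a shared CDDO-Im region within 50 kb (x axis, %) for the 10 cytokine genes, the 12 lists and the microglia markers, with counts beside the bars; the dashed line is the 11.6% of all protein-coding genes and the dotted line the 1.81% for shared vehicle regions. The 10 cytokine genes, at 1 of 10, lie near the dashed line.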

How the data were processed

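NRF2 ChIP-seq peaks of 2 CDDO-Im and 2 vehicle libraries of HMC3 cells were used. The tools named, per the submitters' processing notes, are MACS2 2.2.7.1, BWA 0.7.17 and bcl2fastq 2.15.0, and the builds are hg38 and GRCm38. The handling of controls, thresholds and duplicates, not given in the sources used here, could change which peaks are listed. Positions in the lists lie as on hg38. The deposited lists, 1 per library, give a fold enrichment (ratio), −log10 p, −log10 q and a score that is 10 times the −log10 q.

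Summit tags were worked out from the deposited fold, read as (tags + 1) / (background + 1), and the deposited −log10 p, read as a Poisson tail beyond the tags (tolerance 0.001 plus 0.0002 of the value). The match was unique for 97.7% to 99.4% of peaks. The recovery was tested on peaks simulated with these same formulas, which cannot show that the deposited values were made in this way. The lowest background of a library, 0.332 and 0.367 tags with CDDO-Im and 0.316 and 0.315 with vehicle, served as its genome-wide background and stands for depth, because the lists hold no library totals. The fragment length set in peak calling, which is unknown, enters this measure.

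Peaks overlapping by at least 1 bp were joined into regions, and megabases with more than 20 regions were set apart as crowded. A gene had a region of both libraries when both listed a peak in 1 region with its summit inside the gene or within 50 kb. Numbers of peaks were compared by an exact permutation test. Genes came from RefSeq (GRCh38.p14). Python 3.11.15, pandas 2.3.3, numpy 2.4.6 and scipy 1.17.1 were used. Distances, −log10 q minimums, overlap, depth measure and left-out libraries were varied. Named genes were the 10 cytokine genes with the genes nearest to their peaks, list members with a region shared within a group, the 5 genes most like IL6, and HMOX1 and NQO1 for scale. GCLM, the far peaks and the motifs were added after the data were seen. The 10 genes and the lists were chosen with earlier results of these data known.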

Additional observations from a re-analysis of the deposited data

How the results depend on the processing

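The count of 1 cytokine gene (IL6) with a shared CDDO-Im region was the same at distances of 1, 10 and 100 kb, at a −log10 q of at least 5 or 10, and with a 50% overlap. With a single CDDO-Im list for the group it was 2, since IL1RN (without CDDO-Im 2) or CXCL10 (without CDDO-Im 1) then counted, so it ranged from 1 to 2 over left-out libraries. The count for shared vehicle regions was 0 under each of these settings. The log2 difference in peak number, 1.58, was 1.00 at 10 kb and at either −log10 q minimum and 2.32 at 100 kb, each with an exact permutation p of 0.33, and stayed at 1.58 without any 1 library. The replicate numbers are not said to mark a shared batch. With them as a block the difference was 1.58 (exact permutation p = 0.5, the smallest that 2 pairs can give). Deviations of same-numbered libraries correlated at 0.243 over the 433 regions of all 4 libraries and at -0.0433 over the 230 outside crowded megabases. The IL6 mean of 87.7 tags over background was 31.0 as tags with no division and 87.8 with background taken over the shortest listed peak width, and ranged from 69.3 to 106 over left-out libraries. Most peaks rest on few tags, which limits what the lists can show of weak occupancy.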

Other observations

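Several genes of the inflammatory lists had a peak in 1 library alone, chosen here after their values were seen. CLCF1, a cytokine of the interleukin-6 family, had a peak 360 bp from the gene in CDDO-Im 2 (chromosome 11, 67374385 to 67374710) with 20 tags, or 54.4 over background. IL6R, the interleukin-6 receptor, had one inside the gene in CDDO-Im 2 with 18 tags, and TNFRSF1A, the main TNF receptor, one with 17. IFNB1, the gene of interferon beta, had a peak of 16 tags 6048 bp away in CDDO-Im 2. CDDO-Im 1 listed none of these 4. The CDDO-Im 2 list was the longest, with 12433 peaks against 4024 in CDDO-Im 1. IKBKG, of the NF-kB list, also had a peak of 16 tags inside the gene in CDDO-Im 2 alone. Peaks of CDDO-Im 1 alone lay near MX1 (12 tags, 49547 bp away) and IKBKB (7 tags, 33191 bp away), among others. In vehicle 1 alone, peaks lay inside TRAF6 (9 tags), NFKB1 (6) and IL1RAP (5), which relay interleukin-1 signals. Of the 128 genes, 38 had a peak of any library within 50 kb (29.7%), and over all protein-coding genes this share was 31.5%.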
